A study of Mus musculus with 25 samples.

Results

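Macrophages from glioblastomas that had arisen spontaneously in mice were compared by origin, 3 libraries of monocyte-derived macrophages (MDM) against 6 libraries of microglia, 9 of the 21 libraries in the table. The members are the libraries to which the labels give this tumour model and either cell type. Type 1 tumours gave MDM replicates 1 and 2 and microglia replicates 1, 2 and 3, and type 2 tumours gave MDM replicate 3 and microglia replicates 1, 2 and 3. The 6 MDM and 6 microglia libraries from transplanted tumours of both types serve below as the comparison, while 4 samples of microglia from normal brain are not analysed here. All groups are untreated as far as the labels go, and the series title names lineage-based models of the tumour. The labels used here give no strain, age, driver mutation, promoter, sort gate or host of the transplants, and say neither what sets type 1 apart from type 2 nor whether each library is from an animal of its own, so the p-values rest on a spread between libraries that may be technical in part. A single MDM library stands for type 2. Its library name carries the number 3, used here, while its title numbers it 1.

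Microglia are the macrophages that settle in the brain before birth and renew themselves there, held in their state by TGF-beta and by factors such as SALL1. MDM descend from blood monocytes that follow chemokines such as CCL2 into a tumour and then take on macrophage functions. In glioblastoma both are counted as tumour-associated macrophages, and genes of each origin, such as the integrin Itga4 for MDM and the purine receptor P2ry12 for microglia, are used to tell them apart. Both can take up debris, secrete cytokines and, when class II molecules of the major histocompatibility complex (MHC) are made, present peptides to T cells.

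The spontaneous libraries held 30787372 to 43014171 reads over genes and 16297 to 17967 detected genes, with 11% to 26.1% of reads in their 10 most abundant genes. Libraries are named by tumour type, cell type and replicate, as in type 1 MDM 2. Levels are normalised read counts, that is reads divided by the size factor of the library, and are listed for MDM in the order type 1 MDM 1, type 1 MDM 2, type 2 MDM 3, and for microglia as the lowest and highest library with the median. Fold changes are log2 values of MDM minus microglia from limma-trend on log2(count + 1) with tumour type as a covariate, ± the standard error, and a call means that the p, adjusted by Benjamini and Hochberg's method across the genes tested, was under 0.05. Among microglia, type 1 microglia 2 had the highest level of genes of monocyte-derived cells. The mean log2 level of 32 such genes was 10.99 there and 6.57 to 8.52 in the other 5 microglia libraries. In MDM this mean was 12.10 to 14.01. Type 1 MDM 2 held the highest level of that list, and of several interferon and cytokine genes given below.

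The markers that define the 2 populations followed the labels. Itga4, the alpha-4 integrin chain that lets blood leukocytes adhere to vessel walls (chromosome 2, 79255426 to 79333114 on GRCm38.p6, RefSeq), read 2326, 5343 and 4202 in MDM and 36.3 to 438 (median 62.1) in microglia, a difference of 5.30 ± 0.66 (adjusted p = 0.0012). Ccr2, the receptor for the monocyte attractant CCL2 (chromosome 9, 124101918 to 124109140), read 28080, 25010 and 6913 and 37.1 to 2691 (median 196), a difference of 5.80 ± 1.01 (adjusted p = 0.0041). All 3 MDM libraries lay above all 6 microglia libraries for both genes, and the highest microglia library for both was type 1 microglia 2. Tmem119, a membrane protein restricted to microglia among brain cells (chromosome 5, 113793729 to 113800396), read 33670, 13810 and 24780 in MDM and 123000 to 211900 (median 183200) in microglia, a difference of -2.92 ± 0.35 (adjusted p = 0.0011). P2ry12, the ADP receptor by which microglial processes find injury (chromosome 3, 59216271 to 59262985), read 6505, 2208 and 1848 and 12890 to 101200 (median 67060), a difference of -4.06 ± 0.61 (adjusted p = 0.0021). For these 2 genes all MDM libraries lay below all microglia libraries, yet none was near 0. In sorted bulk RNA, fewer cells of a type and less RNA per cell cannot be told apart. Among genes shared by all macrophages, the surface phosphatase Ptprc (CD45) read 10830, 22400 and 8385 against 5224 to 11360 (median 8024), with a difference of 0.66 ± 0.35 (adjusted p = 0.25), and the integrin Itgam (CD11b) read 21010, 23630 and 17310 against 11540 to 60790 (median 25130), with a difference of -0.36 ± 0.47 (adjusted p = 0.67).

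**Figure D1:**
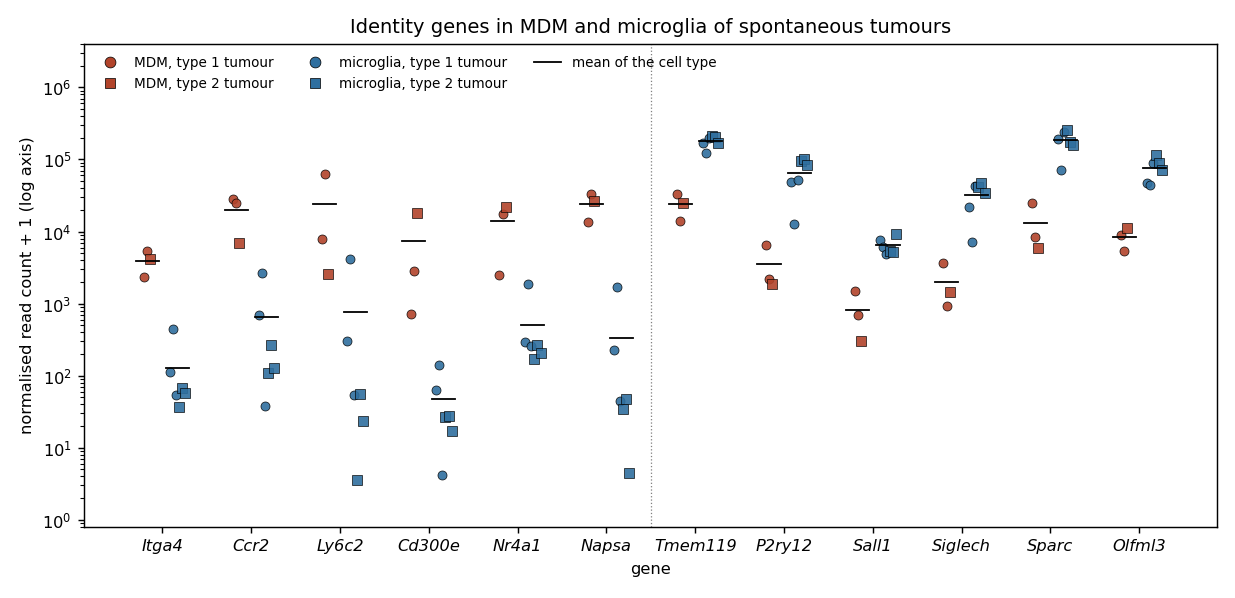
Normalised read count + 1 (log axis) of 12 identity genes in the 9 spontaneous libraries, with MDM in red and microglia in blue, circles for type 1 and squares for type 2 tumours, and a line at the mean of each cell type. The 6 genes left of the dotted line are higher in MDM and the 6 on the right are higher in microglia. Ly6c2 overlaps between the cell types through type 1 microglia 2.

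Of 15100 genes tested, 2385 were called, 15.8% of them: 1320 (8.74%) higher and 1065 (7.05%) lower in MDM, with a median log2 fold change of 0.02 over all genes. With type 2 MDM 3 left out, which leaves 2 MDM libraries, 667 genes were called, and with type 1 MDM 2 left out, 1349. Fitted on the type 1 libraries alone (2 MDM, 3 microglia), 8 genes were called. The largest rises among called genes without overlap of the libraries were Sh2d2a, Il2rb, Kit, L1cam, Prf1, Cd2, Ncr1 and Cdh1. Of these 8, 5 are known as genes of T and natural killer (NK) cells: the T cell adaptor Sh2d2a (635, 1197 and 2247 in MDM, 0 to 11.2, median 0, in microglia, 9.55 ± 1.02, adjusted p = 0.0008), the interleukin-2 and interleukin-15 receptor chain Il2rb (9.32 ± 1.32, adjusted p = 0.0017), perforin Prf1 (8.82 ± 1.26, adjusted p = 0.0018), the lymphocyte adhesion molecule Cd2 (8.72 ± 0.91, adjusted p = 0.00075) and the natural killer receptor Ncr1 (8.71 ± 1.12, adjusted p = 0.0013). Kit, the receptor of stem cell factor, read 2370, 2974 and 1217 in MDM and 0 to 8.06 (median 4.24) in microglia, a difference of 9.18 ± 0.92 (adjusted p = 0.00074). Where microglia libraries are at 0, the size of these fold changes depends on the 1 added to each count. Genes were tested if 3 or more libraries held 10 or more normalised counts. A gene under 10 in all microglia libraries, such as Kit, thus passed through the 3 MDM libraries alone, where it was high. The adhesion molecules L1cam and E-cadherin (Cdh1) differed by 9.15 ± 1.24 (adjusted p = 0.0014) and 8.67 ± 1.55 (adjusted p = 0.0045). The largest falls were Naalad2, Amotl1, Col6a3, Ebf3, Crybb1, Tmc7, Slc2a5 and Mlph. Crybb1, a crystallin gene used as a microglial marker, read 266, 116 and 82.5 in MDM and 1412 to 17040 (median 6912) in microglia, a difference of -5.26 ± 0.83 (adjusted p = 0.0025). Slc2a5, the fructose transporter of microglia, read 812, 97.6 and 199 and 1711 to 20690 (median 12180), a difference of -4.99 ± 0.78 (adjusted p = 0.0025). The other 6 falls ran from -6.21 ± 1.13 for the peptidase gene Naalad2 to -4.95 ± 0.90 for melanophilin (Mlph). Calls were lost for Cdh1 and Naalad2 without type 2 MDM 3 (adjusted p 0.0547 to 0.06).

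RNA of other cell types was measured with 10 marker lists, of which the T and NK cell list had the highest median log2 fold change, 7.14. All 16 of its tested genes were called higher in MDM, and its summed level was 14890 to 45120 in MDM against 108 to 405 in microglia. The natural killer granule gene Nkg7 read 1300, 2119 and 6684 in MDM and 0 to 26.8 (median 7.05) in microglia, a difference of 8.57 ± 1.12 (adjusted p = 0.0013). The T cell receptor chain Cd3g read 714, 656 and 72.9 and 0 to 4.46 (median 1.40), and the co-receptor Cd8a 539, 643 and 75.0 and 0 to 11.2 (median 0), so both were lowest among MDM in the type 2 library, where Nkg7 and Ncr1 were highest. The filter on low counts removed none of the 16 measured T and NK cell genes. Those under 10 in all microglia libraries, such as Cd3g, passed it only through MDM, so a rise was the only direction it allowed them. Of the B cell list 4 of 6 tested genes rose. Over all genes, 8.74% were called higher and 7.05% lower. Of the dendritic cell list 8 of 12 rose and 2 fell. Without type 2 MDM 3, 2 B cell and 5 dendritic cell genes were called higher. Flt3, the receptor that dendritic cell precursors need, read 8525, 8124 and 4473 in MDM and 37.1 to 416 (median 44.3) in microglia, a difference of 6.57 ± 0.68 (adjusted p = 0.00075), and the lectin Cd209a read 8619, 32280 and 6789 and 6.84 to 852 (median 36.3), a difference of 7.63 ± 1.03 (adjusted p = 0.0014). The 2 that fell were Siglech, a plasmacytoid dendritic cell gene that microglia also make, and Fscn1. Of the other lists, 1 of 7 neutrophil genes (Retnlg) and 1 of 6 vessel genes (Pecam1) rose, while 0 of 10 oligodendrocyte progenitor, 0 of 3 neuron and 0 of 5 red blood cell genes were called. The oligodendrocyte and astrocyte lists split, with Mbp (2.14 ± 0.23) and Vim (4.02 ± 0.78) higher and Mag (-2.15 ± 0.35) and Slc1a3 (-3.62 ± 0.43) lower in MDM. Some members of these lists, Mog of oligodendrocytes, Tek and Rgs5 of vessels and Elane and Mpo of neutrophils, had no reads in any MDM library. Rgs5, Elane and Mpo had none in any microglia library either. The summed oligodendrocyte list was 11700 to 30930 in MDM and 6411 to 9885 in microglia. A sum is weighted to abundant members, and the mean log2 level of this list was 5.69 to 7.66 in MDM and 6.78 to 8.35 in microglia. For the vessel list the sums were 2090 to 10280 and 532 to 2638, and for the neutrophil list 104 to 956 and 54.8 to 1377. The part that T, NK, B and dendritic cell RNA has in the higher levels of MDM, in these and the following gene groups, was not tested. The test was no longer passed by Retnlg and Pecam1 without type 1 MDM 2 (adjusted p 0.0502 to 0.0784). The threshold was missed by Retnlg, Pecam1 and Fscn1 without type 2 MDM 3 (adjusted p 0.0715 to 0.17).

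**Figure D2:**
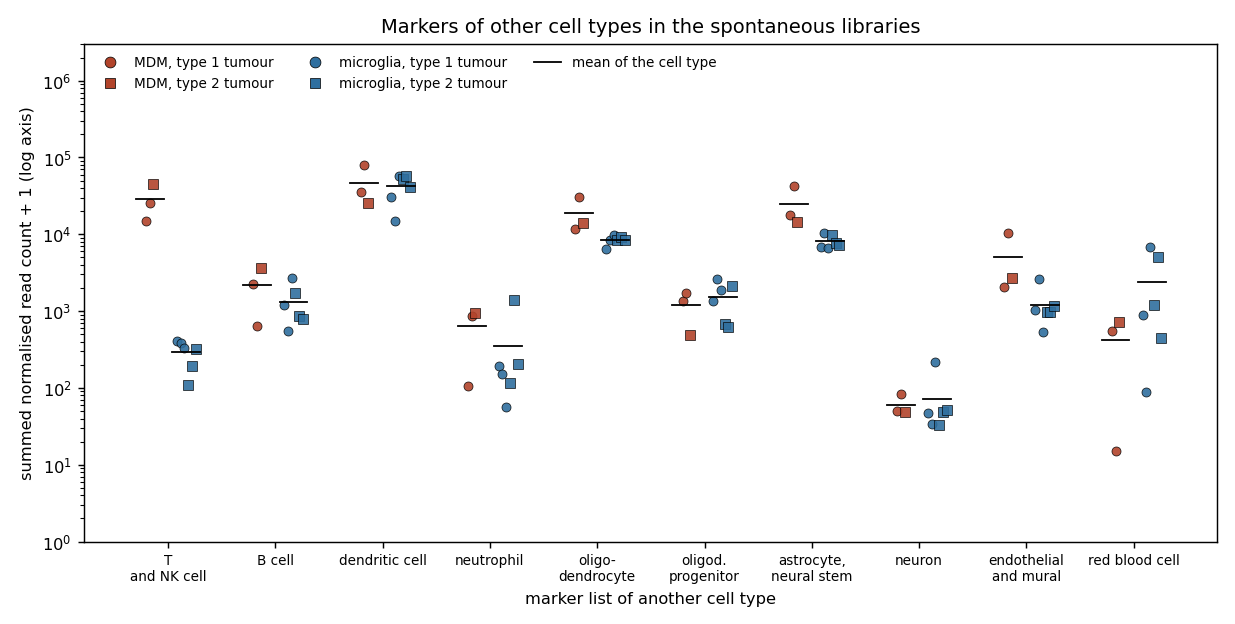
Summed normalised read count + 1 (log axis) of 10 marker lists of other cell types in each spontaneous library, MDM in red and microglia in blue, circles for type 1 and squares for type 2 tumours, with the mean of each cell type as a line. The T and NK cell sums of MDM lie above those of all microglia libraries, and the dendritic cell sums, which count Siglech, overlap.

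Homeostatic microglial genes were lower in MDM as a group. Of 27 tested, 21 fell, 0 rose and the median log2 fold change was -3.03, against 7.05% of all genes called lower. Sall1, the transcription factor that maintains microglial identity, read 1484, 683 and 299 in MDM and 4838 to 9327 (median 5741) in microglia, a difference of -3.29 ± 0.42 (adjusted p = 0.0012). The secreted matrix genes Sparc and Olfml3 differed by -4.02 ± 0.53 (adjusted p = 0.0013) and -3.05 ± 0.32 (adjusted p = 0.00079), and the Fc receptor-like gene Fcrls by -3.03 ± 0.38 (adjusted p = 0.0012). Cx3cr1, the fractalkine receptor, was the smallest of these differences, -1.83 ± 0.31 (adjusted p = 0.0034), with 27810, 13030 and 14340 in MDM and 52950 to 73840 (median 60110) in microglia. Csf1r, the receptor on which both populations depend for survival, did not pass the test: it read 87000, 47980 and 129600 in MDM and 109800 to 327400 (median 145500) in microglia, with a difference of -0.84 ± 0.39 (adjusted p = 0.19). Significance was lost for Cx3cr1 without type 2 MDM 3 (adjusted p 0.0538).

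Genes of monocyte-derived macrophages and of monocytes were higher in MDM as groups. Of 32 genes of monocyte-derived macrophages 28 rose and 0 fell, with a median of 5.07, and of 16 monocyte genes 13 rose, with a median of 5.54, against 8.74% of all genes called higher. Among genes of monocyte-derived macrophages, the number called higher was 15 without type 1 MDM 2 and 8 without type 2 MDM 3. For monocyte genes the calls higher in MDM numbered 2 without type 2 MDM 3. Lsp1, an actin-binding protein of leukocytes, read 30940, 67540 and 48400 in MDM and 2124 to 5035 (median 4119) in microglia, a difference of 3.65 ± 0.35 (adjusted p = 0.0007). The calcium-binding genes S100a4 and S100a6 differed by 5.94 ± 0.81 (adjusted p = 0.0014) and 7.04 ± 1.11 (adjusted p = 0.0025), and the protease Napsa by 7.93 ± 1.20 (adjusted p = 0.0022). Ly6c2, which marks classical monocytes, read 7944, 62610 and 2590 in MDM and 2.60 to 4161 (median 54.3) in microglia, and its difference of 6.35 ± 1.29 (adjusted p = 0.0082) came with overlap, since type 1 microglia 2 reached 4161. The genes of nonclassical, patrolling monocytes had another order among MDM. Nr4a1, the factor that patrolling monocytes need, read 2517, 17600 and 22020 in MDM and 170 to 1854 (median 259) in microglia, a difference of 4.85 ± 0.83 (adjusted p = 0.0037), Treml4 read 1330, 8069 and 24900 and 221 to 727 (median 367), a difference of 4.23 ± 0.68 (adjusted p = 0.0027), and Cd300e read 725, 2806 and 18300 and 3.22 to 141 (median 26.2), a difference of 7.02 ± 1.15 (adjusted p = 0.0029). All 3 were highest in the type 2 MDM library, where Ccr2 and Ly6c2 were lowest. Because that group is 1 library, the order cannot be told apart from the spread between libraries. The C/EBP-beta gene Cebpb, on which patrolling monocytes also depend, was not called (-1.62 ± 1.15, adjusted p = 0.39): it read 17920, 153900 and 555 in MDM and 14680 to 66420 (median 24300) in microglia, so the type 2 library was the lowest of all 9, and without it the difference was 0.84. No call remained for Ly6c2, Nr4a1 and Cd300e without type 2 MDM 3 (adjusted p 0.0533 to 0.0879).

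Border-associated macrophages, which line the meninges and vessels, were checked with 12 genes, of which 11 were tested and 5 rose. Over all genes, 8.74% were called higher. Mrc1, the mannose receptor, read 391, 1088 and 454 in MDM and 16.7 to 158 (median 132) in microglia, a difference of 2.63 ± 0.73 (adjusted p = 0.032). The haemoglobin scavenger Cd163 read 101, 121 and 184 and 0 to 15.0 (median 0), a difference of 5.76 ± 1.23 (adjusted p = 0.01), and the phosphatidylserine receptor Timd4 differed by 7.01 ± 1.09 (adjusted p = 0.0024). With 1 library left out, the genes of border-associated macrophages called higher numbered 3 without type 1 MDM 1, 3 without type 2 microglia 1 and 2 without type 2 MDM 3. The adjusted p rose past the threshold for Cd163 without type 2 MDM 3 (adjusted p 0.096). The call was lost for Mrc1 on leaving out any 1 library except type 1 microglia 1, type 1 microglia 2, type 1 microglia 3 and type 2 microglia 3 (adjusted p 0.0502 to 0.15).

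Among 28 transcription factors of macrophages 9 were higher and 6 lower in MDM, against 8.74% and 7.05% of all genes. The list thus moved both ways, with a median of 0.39. The count of higher transcription factors was 3 without type 2 MDM 3. Among transcription factors, the number called lower was 3 without type 2 MDM 3. Among the 6 lower were Sall1, given above, and Mef2c (-1.31 ± 0.29, adjusted p = 0.012), both known for microglial identity. Bhlhe41 read 781, 226 and 414 in MDM and 2782 to 3305 (median 3053) in microglia, a difference of -2.85 ± 0.35 (adjusted p = 0.0011). Its relative Bhlhe40 went the other way, at 16650, 40610 and 13340 in MDM and 1106 to 4576 (median 2042) in microglia, a difference of 3.24 ± 0.44 (adjusted p = 0.0015). Klf4, which monocytes need to form, differed by 3.26 ± 0.54 (adjusted p = 0.0032). Of the factors that all macrophages share, neither Spi1 nor Irf8 was called: Spi1 (PU.1) read 27900, 62020 and 42050 in MDM and 20430 to 43300 (median 29360) in microglia, a difference of 0.49 ± 0.34 (adjusted p = 0.38), and Irf8 35050, 31710 and 33050 and 37370 to 54540 (median 44080), a difference of -0.45 ± 0.24 (adjusted p = 0.26). Calls were lost for Mef2c without type 2 MDM 3 (adjusted p 0.126).

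Genes of MHC class II presentation were far higher in MDM. Class II molecules carry peptides from engulfed proteins to helper T cells: H2-Aa, H2-Ab1 and H2-Eb1 encode their chains, Cd74 the invariant chain that guards the groove, the H2-DM genes the exchange of peptides, and Ciita the coactivator that switches the whole set on. Their promoters carry short elements, an X box and a Y box, that hold the proteins to which CIITA binds. Because 9 of 11 genes of this list rose, 60 bases are printed here from the promoters of the 5 class II genes that are described below and have an entry, 5′ to 3′ on the strand of the gene, from RefSeq on GRCm38.p6. Capitals mark the Y box core GATTGG and, where present, the X box form AGCAACNG:

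H2-Aa, chr17:34287861-34287920 (minus strand): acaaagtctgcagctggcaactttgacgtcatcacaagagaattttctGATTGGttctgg
H2-Eb1, chr17:34305759-34305818 (plus strand): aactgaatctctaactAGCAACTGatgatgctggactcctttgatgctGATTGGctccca
H2-Eb2, chr17:34325526-34325585 (plus strand): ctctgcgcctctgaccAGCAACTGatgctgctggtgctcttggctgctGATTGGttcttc
H2-DMb2, chr17:34145110-34145169 (plus strand): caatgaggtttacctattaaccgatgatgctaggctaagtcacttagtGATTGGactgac
H2-Ob, chr17:34238799-34238858 (plus strand): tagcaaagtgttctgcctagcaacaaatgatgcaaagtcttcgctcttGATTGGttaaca

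Of the 11 genes 8 had an entry, 9 promoters in all, and each of the 8 genes held GATTGG on its own strand, H2-DMa in the second of its 2 entries. Of all 32851 RefSeq promoters of the same length, 300 bases, 16.1% held GATTGG on either strand and 8.71% on the strand of the gene. H2-Eb1 and H2-Eb2 also held AGCAACNG, which 5.14% of all promoters hold on either strand, and in both it began 32 bases before the Y box. The 2 motifs do not share bases. Forms of the X box that differ from this string were not searched, so a window without the mark may still hold one. A match of letters is a description of these windows and not a measured binding site.

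Of the 11 class II genes 9 rose in MDM and 0 fell, with a median of 2.88, against 8.74% of all genes. H2-Ab1 read 551600, 618400 and 285400 in MDM and 4599 to 75220 (median 20710) in microglia, a difference of 4.35 ± 0.53 (adjusted p = 0.0011). H2-Aa read 273600, 325400 and 188300 and 1757 to 46780 (median 11570), a difference of 4.42 ± 0.63 (adjusted p = 0.0018), and H2-Eb1 324300, 334900 and 150100 and 929 to 43780 (median 8825), a difference of 4.82 ± 0.68 (adjusted p = 0.0017). No MDM library overlapped a microglia library for these chains, and within MDM the type 2 library was the lowest. Cd74 read 1011000, 1530000 and 529800 in MDM and 22430 to 284000 (median 66290) in microglia, a difference of 3.56 ± 0.57 (adjusted p = 0.0026). Ciita read 12290, 5590 and 4706 and 18.5 to 364 (median 57.8), with the largest difference of the list, 6.34 ± 0.65 (adjusted p = 0.00074). H2-DMb2, a chain of the peptide exchanger and a near copy of H2-DMb1, differed by 2.61 ± 0.30 (adjusted p = 0.0011). H2-Eb2 (2.88 ± 1.07, adjusted p = 0.098) and H2-Ob (0.17 ± 0.30, adjusted p = 0.76) were the 2 that were not called. B and dendritic cells also make class II, and 4 of 6 and 8 of 12 genes of their lists rose in MDM, as given above. MHC class I genes, which present peptides of the cell itself, gave another picture: 0 of 15 were called by limma-trend, with 0 by voom and 3 at an unadjusted p under 0.05, and H2-K1 read 122700, 162100 and 146400 in MDM against 111900 to 221400 (median 168900) in microglia, a difference of -0.25 ± 0.33 (adjusted p = 0.67).

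Among innate receptors and complement the groups split by gene. Complement C1q, which tags debris and synapses for uptake, was lower in MDM: C1qa read 71170, 57770 and 91300 in MDM and 243400 to 983500 (median 438400) in microglia, a difference of -2.73 ± 0.47 (adjusted p = 0.0038), and C1qb and C1qc differed by -2.54 ± 0.51 (adjusted p = 0.0075) and -2.52 ± 0.49 (adjusted p = 0.0064). Properdin (Cfp), which stabilises the alternative pathway, went the other way, at 11830, 23890 and 8944 and 98.3 to 1323 (median 388), a difference of 5.20 ± 0.74 (adjusted p = 0.0017), as did factor B (Cfb, 2.24 ± 0.62, adjusted p = 0.032). Of 15 complement genes 2 rose and 6 fell, against 8.74% and 7.05% of all genes. For complement genes the calls lower in MDM numbered 3 without type 2 microglia 1 and 3 without type 2 MDM 3. Of 21 lectins and Siglecs, receptors that read sugars on cells and microbes, 11 rose and 2 fell, Siglech and Siglecf. With 1 library left out, the lectin and Siglec genes called higher numbered 5 without type 2 MDM 3. Dectin-2 (Clec4n) read 3530, 4135 and 5930 in MDM and 48.4 to 751 (median 168) in microglia, a difference of 4.76 ± 0.63 (adjusted p = 0.0013), and Mgl2 differed by 6.58 ± 0.92 (adjusted p = 0.0017). Of 15 Toll-like receptor genes 2 rose, the RNA sensor Tlr8 (5.44 ± 1.55) and the adaptor Myd88 (1.56 ± 0.41), and 2 fell, the RNA sensor Tlr7 (-1.01 ± 0.29) and the lipopolysaccharide receptor Tlr4 (-1.05 ± 0.31), so that both shares lay near those of all genes. Of 7 Fc receptor genes Fcgr3 (-1.51 ± 0.35) and Fcrls fell. The test was no longer passed by Siglecf without type 1 MDM 2 (adjusted p 0.055). The threshold was missed by Fcgr3 and Siglecf without type 2 MDM 3 (adjusted p 0.11 to 0.142). Significance was lost for Cfb on leaving out any 1 library except type 1 MDM 1, type 1 microglia 2 and type 2 microglia 3 (adjusted p 0.0522 to 0.139). No call remained for Tlr8 on leaving out any 1 library except type 1 microglia 2, type 2 microglia 1, type 2 microglia 2 and type 2 microglia 3 (adjusted p 0.0552 to 0.221). The adjusted p rose past the threshold for Myd88 without type 1 microglia 1, type 1 MDM 2, type 2 microglia 1 or type 2 MDM 3 (adjusted p 0.0522 to 0.111). The call was lost for Tlr4 on leaving out any 1 library except type 1 MDM 2 and type 1 microglia 3 (adjusted p 0.0531 to 0.297). Calls were lost for Tlr7 on leaving out any 1 library except type 1 microglia 3 and type 2 microglia 3 (adjusted p 0.0507 to 0.202).

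Interleukin-1 genes moved in opposite directions. Il1b read 3663, 32320 and 14010 in MDM and 701 to 7382 (median 2256) in microglia, a difference of 2.43 ± 0.74 (adjusted p = 0.049) with overlap of the libraries. Il1a read 916, 2143 and 1270 and 5649 to 8901 (median 7600), a difference of -2.43 ± 0.30 (adjusted p = 0.0011), and no library overlapped. Of 23 cytokine and NF-kB genes 4 rose and 1, Il1a, fell, against 8.74% and 7.05% of all genes called higher and lower. The count of higher cytokine and NF-kB genes was 8 without type 1 MDM 1, 1 without type 1 MDM 2 and 2 without type 2 MDM 3. The NF-kB subunits Nfkb1 and Nfkb2 differed by 1.42 ± 0.23 (adjusted p = 0.0029) and 1.73 ± 0.40 (adjusted p = 0.014). Of 30 interferon-response genes 2 rose, Irf1 (1.70 ± 0.39, adjusted p = 0.015) and Irf9 (0.95 ± 0.27, adjusted p = 0.035), a share near the 8.74% of all genes called higher, and the list had a median of 0.97. Among interferon-response genes, the number called higher was 5 without type 1 MDM 1 and 4 without type 1 microglia 2. In type 1 MDM 2 several of these genes were far above the other libraries: Irf7 read 34770, 357100 and 34590 in MDM and 12850 to 51910 (median 22240) in microglia, Ifit3 10230, 150700 and 9289 and 5774 to 28420 (median 9073), and neither was called (1.58 ± 0.67, adjusted p = 0.14 and 0.98 ± 0.75, adjusted p = 0.44). Without that library the median of the list was -0.18. The test was no longer passed by Nfkb2 without type 1 MDM 2 (adjusted p 0.066). The threshold was missed by Nfkb2 and Irf1 without type 2 MDM 3 (adjusted p 0.0694 to 0.0785). Significance was lost for Il1b on leaving out any 1 library except type 1 MDM 1 and type 1 microglia 2 (adjusted p 0.0766 to 0.225). No call remained for Irf9 on leaving out any 1 library except type 1 MDM 1, type 1 microglia 2 and type 2 microglia 3 (adjusted p 0.0538 to 0.12).

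Several chemokines and receptors differed between the cell types, in both directions. Ccl17 and Ccl22, ligands that draw CCR4-bearing T cells, were higher in MDM: Ccl22 read 1009, 16730 and 634 in MDM and 22.6 to 465 (median 46.3) in microglia, a difference of 4.99 ± 1.03 (adjusted p = 0.009), and Ccl17 read 163, 2667 and 283 and 0 to 65.4 (median 5.66), a difference of 5.88 ± 1.19 (adjusted p = 0.008). Ccl3 and Ccl12, attractants of monocytes, were lower, with Ccl3 at 579.8, 2779 and 479 and 1645 to 12640 (median 4164), a difference of -2.45 ± 0.55 (adjusted p = 0.013) and Ccl12 with a difference of -3.26 ± 0.84 (adjusted p = 0.023). The B cell attractant Cxcl13 also fell, by far the most in the type 2 library, with 1387, 4314 and 8.58 in MDM and 2362 to 24380 (median 8250) in microglia, a difference of -4.92 ± 1.30 (adjusted p = 0.026). Of 20 chemokines 2 rose and 3 fell, shares not far from the 8.74% and 7.05% of all genes called higher and lower. For chemokines the calls lower in MDM numbered 5 without type 1 MDM 2 and 0 without type 2 MDM 3. Of 16 chemokine receptors 8 rose and 2, Cx3cr1 and the scavenging receptor Ackr3 (-3.11 ± 0.63, adjusted p = 0.0083), fell. With 1 library left out, the chemokine receptors called higher numbered 4 without type 1 MDM 2 and 4 without type 2 MDM 3. Cxcr4, the receptor for CXCL12, read 3637, 8207 and 2015 in MDM and 149.7 to 405 (median 285) in microglia, a difference of 3.75 ± 0.44 (adjusted p = 0.0011). Ccr9 (5.23 ± 0.97, adjusted p = 0.0052) and Cxcr3 (6.60 ± 1.26, adjusted p = 0.0061), which T and NK cells also carry, rose as well. Among 17 leukocyte integrins Itgb7, the partner of the alpha-4 chain, read 19500, 27500 and 14370 in MDM and 37.1 to 2098 (median 212) in microglia, a difference of 6.41 ± 0.96 (adjusted p = 0.0021), and Itgal, a chain of the adhesion receptor LFA-1, rose too (3.46 ± 0.91, adjusted p = 0.026). In all 4 integrins were called higher and 2 lower, against 8.74% and 7.05% of all genes. Without type 2 MDM 3, 2 integrins were called higher. Itgb5, which pairs with alpha-V and binds vitronectin, fell, at 47820, 14620 and 5437 and 62810 to 124600 (median 77320), a difference of -2.51 ± 0.55 (adjusted p = 0.012), with its lowest level in the type 2 library. The adjusted p rose past the threshold for Ccl12 without type 1 MDM 1 (adjusted p 0.0867). The call was lost for Itgal and Itgb5 without type 1 MDM 2 (adjusted p 0.0501 to 0.0857). Calls were lost for Ccl22, Ccl17, Ccl3, Ccl12, Cxcl13, Ackr3, Itgal and Itgb5 without type 2 MDM 3 (adjusted p 0.0528 to 0.235).

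Of 27 genes of the disease-associated programme, which microglia switch on around damage, 9 fell, 1, Lgals3, rose and 17 were not called, against 7.05% and 8.74% of all genes called lower and higher. The list had a median of -1.22. Trem2, the lipid receptor that this programme needs, read 14500, 5120 and 15360 in MDM and 29010 to 118200 (median 66290) in microglia, a difference of -2.57 ± 0.49 (adjusted p = 0.0061). Cst7 read 6054, 4532 and 3292 and 17140 to 50430 (median 31520), a difference of -2.72 ± 0.38 (adjusted p = 0.0017), and Cd9 44920, 32120 and 39780 and 102700 to 224600 (median 167000), a difference of -2.08 ± 0.36 (adjusted p = 0.0039). Galectin-3 (Lgals3) read 23570, 46530 and 36060 and 5795 to 24640 (median 11770), a difference of 1.47 ± 0.45 (adjusted p = 0.046). Apoe, at 889100, 404100 and 2082000 in MDM and 1094000 to 3366000 (median 1820000) in microglia, and Spp1, at 138100, 75600 and 44350 and 26590 to 371300 (median 148100), were among those not called (-0.92 ± 0.65, adjusted p = 0.39 and -0.83 ± 0.77, adjusted p = 0.52). The test was no longer passed by Lgals3 on leaving out any 1 library except type 1 MDM 1, type 1 microglia 2 and type 2 microglia 2 (adjusted p 0.0504 to 0.219).

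Lysosomal genes were lower in MDM by 10 of 26, with 1 higher and a median of -1.03. Of all genes, 7.05% were called lower and 8.74% higher. The count of lower lysosomal genes was 3 without type 2 MDM 3. Cathepsin L (Ctsl) read 23500, 16050 and 14690 in MDM and 93490 to 145700 (median 133300) in microglia, a difference of -2.81 ± 0.30 (adjusted p = 0.0008), and cathepsin D (Ctsd) 434500, 308300 and 395900 and 1745000 to 3220000 (median 2044000), a difference of -2.55 ± 0.50 (adjusted p = 0.0072). Legumain (Lgmn) differed by -1.80 ± 0.35 (adjusted p = 0.0063). The 1 that rose was Tfeb, the transcription factor of lysosomal genes, at 5457, 4855 and 5424 and 2275 to 3608 (median 2734), a difference of 0.91 ± 0.24 (adjusted p = 0.028). Mertk, a receptor for dying cells, read 3946, 1666 and 3018 in MDM and 3477 to 17390 (median 7674) in microglia, a difference of -1.47 ± 0.45 (adjusted p = 0.049), and its ligands Gas6 and Pros1 were lower too: Gas6 read 2206, 1102 and 2245 and 10010 to 16330 (median 11170), a difference of -2.71 ± 0.29 (adjusted p = 0.00079), and Pros1 differed by -1.98 ± 0.38 (adjusted p = 0.006). The threshold was missed by Ctsd, Lgmn and Pros1 without type 2 MDM 3 (adjusted p 0.0848 to 0.0928). Significance was lost for Tfeb on leaving out any 1 library except type 1 microglia 3, type 2 microglia 1 and type 2 microglia 3 (adjusted p 0.0523 to 0.143). No call remained for Mertk on leaving out any 1 library except type 1 MDM 1 and type 1 microglia 3 (adjusted p 0.0565 to 0.218).

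Genes of alternative activation and immune suppression rose in 8 of 20 and fell in 2, against 8.74% and 7.05% of all genes, with a median of 1.84. Among genes of alternative activation, the number called higher was 4 without type 1 MDM 1, 4 without type 1 microglia 1, 1 without type 1 MDM 2, 5 without type 2 microglia 1 and 0 without type 2 MDM 3. Pparg, the lipid-sensing receptor, read 268, 780.5 and 1708 in MDM and 6.84 to 124 (median 32.1) in microglia, a difference of 4.49 ± 1.01 (adjusted p = 0.013). The 2 that fell act on T cells and on extracellular ATP: the checkpoint molecule VISTA (Vsir) read 18490, 16190 and 23130 and 26430 to 63570 (median 50800), a difference of -1.15 ± 0.26 (adjusted p = 0.014), and CD39 (Entpd1) 7348, 7255 and 7525 and 10630 to 21430 (median 15570), a difference of -1.03 ± 0.24 (adjusted p = 0.016). Arginase 1 (Arg1) read 4333, 7912 and 1383 in MDM and 11.3 to 1543 (median 304) in microglia and PD-L1 (Cd274) 1446, 6190 and 3248 and 292 to 4052 (median 1146), and neither passed the test (4.18 ± 1.44, adjusted p = 0.075 and 1.48 ± 0.70, adjusted p = 0.19). Tgfb1 was at 13440, 25210 and 3485 and 9587 to 11950 (median 10480), a difference of -0.14 ± 0.42 (adjusted p = 0.86), lowest in the type 2 MDM library and highest in the MDM libraries of type 1. Of 15 growth factor genes 0 rose and 5 fell, among them Pdgfa (-1.73 ± 0.27, adjusted p = 0.0025), Pdgfb (-1.69 ± 0.25, adjusted p = 0.0021) and Vegfb (-2.58 ± 0.40, adjusted p = 0.0025). Of 22 matrix genes 3 rose and 3 fell, shares not far from the 8.74% and 7.05% of all genes. The number that rose was 0 without type 1 MDM 2, 6 without type 1 microglia 2 and 0 without type 2 MDM 3. Tgfbi read 49900, 113600 and 56030 in MDM and 1126 to 31120 (median 5964) in microglia, a difference of 3.65 ± 0.84 (adjusted p = 0.014), and the metalloprotease inhibitor Timp2 read 25360, 12790 and 5349 and 73470 to 118500 (median 87060), a difference of -3.03 ± 0.37 (adjusted p = 0.0011). The adjusted p rose past the threshold for Pparg and Tgfbi without type 1 MDM 2 (adjusted p 0.0527 to 0.063). The call was lost for Pparg, Vsir, Entpd1 and Tgfbi without type 2 MDM 3 (adjusted p 0.112 to 0.162).

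Purine receptors and the enzymes that make adenosine moved both ways, with 6 of 17 higher and 8 lower in MDM, or 6 and 4 with libraries rescaled to the same total. Without rescaling, 8.74% of all genes were called higher and 7.05% lower. For purine genes the calls higher in MDM numbered 3 without type 2 MDM 3. With 1 library left out, the purine genes called lower numbered 5 without type 1 microglia 1, 5 without type 1 MDM 2, 5 without type 2 microglia 1 and 3 without type 2 MDM 3. Beside P2ry12, the related ADP receptor P2ry13 was lower, at 9527, 6897 and 4467 in MDM and 30310 to 51410 (median 37580) in microglia, a difference of -2.52 ± 0.30 (adjusted p = 0.0011), as was the adenosine receptor Adora3 (-2.58 ± 0.37, adjusted p = 0.0017). The adenosine receptor Adora2a read 303, 819.5 and 462 in MDM and 0 to 37.4 (median 0.65) in microglia, a difference of 7.12 ± 1.36 (adjusted p = 0.0061). P2ry10 (6.78 ± 1.17, adjusted p = 0.0038) and the ATP-gated channel P2rx5 (6.23 ± 0.88, adjusted p = 0.0017) rose as well. Calls were lost for Adora2a without type 2 MDM 3 (adjusted p 0.0579).

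In metabolism, 5 of 20 genes of cholesterol synthesis rose and 1, Dhcr7, fell. For this and the following lists, the shares of all genes were 8.74% higher and 7.05% lower. The count of higher synthesis genes was 1 without type 1 MDM 2 and 1 without type 2 MDM 3. Srebf2, which controls the pathway, read 6012, 6018 and 6353 in MDM and 326 to 2139 (median 1151) in microglia, a difference of 2.66 ± 0.48 (adjusted p = 0.0045). Of 18 genes of cholesterol efflux and lipid storage 2 rose, Nr1h3 (3.86 ± 0.66, adjusted p = 0.0037) and Fabp4 (7.62 ± 1.29, adjusted p = 0.0036), and 2 fell, the cholesterol exporter Abca1 (-1.43 ± 0.40, adjusted p = 0.035) and Lpcat3 (-1.29 ± 0.28, adjusted p = 0.011), shares near those of all genes. Of 25 glycolysis and hypoxia genes 4 rose, among them the phosphofructokinase Pfkp (5.23 ± 0.86, adjusted p = 0.003), and 2 rose without type 1 MDM 2 or without type 2 MDM 3. Of 30 oxidative phosphorylation genes and 32 proliferation genes limma-trend called 0, with 0 and 3 at an unadjusted p under 0.05 and 0 and 0 by voom. Mki67, the marker of cycling cells, read 96.9, 24.7 and 104 in MDM and 58.9 to 1421 (median 251) in microglia, lower than the microglial median in all 3 MDM libraries without passing the test (adjusted p = 0.2). Of 23 immediate-early genes, which respond within minutes to stimulation and to tissue dissociation, 7 rose and 1, Rhob, fell. Among immediate-early genes, the number called higher was 1 without type 1 microglia 1, 1 without type 1 MDM 2 and 1 without type 2 MDM 3. Jun read 9027, 13550 and 6916 and 3257 to 5000 (median 4566), a difference of 1.14 ± 0.28 (adjusted p = 0.018). The test was no longer passed by Jun without type 1 microglia 1 (adjusted p 0.052). The threshold was missed by Jun and Dhcr7 without type 1 MDM 2 (adjusted p 0.0718 to 0.0852). Significance was lost for Fabp4, Lpcat3 and Dhcr7 without type 2 MDM 3 (adjusted p 0.0607 to 0.151). No call remained for Abca1 on leaving out any 1 library except type 1 MDM 1, type 1 microglia 3, type 2 microglia 2 and type 2 microglia 3 (adjusted p 0.0633 to 0.146).

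**Figure D3:**
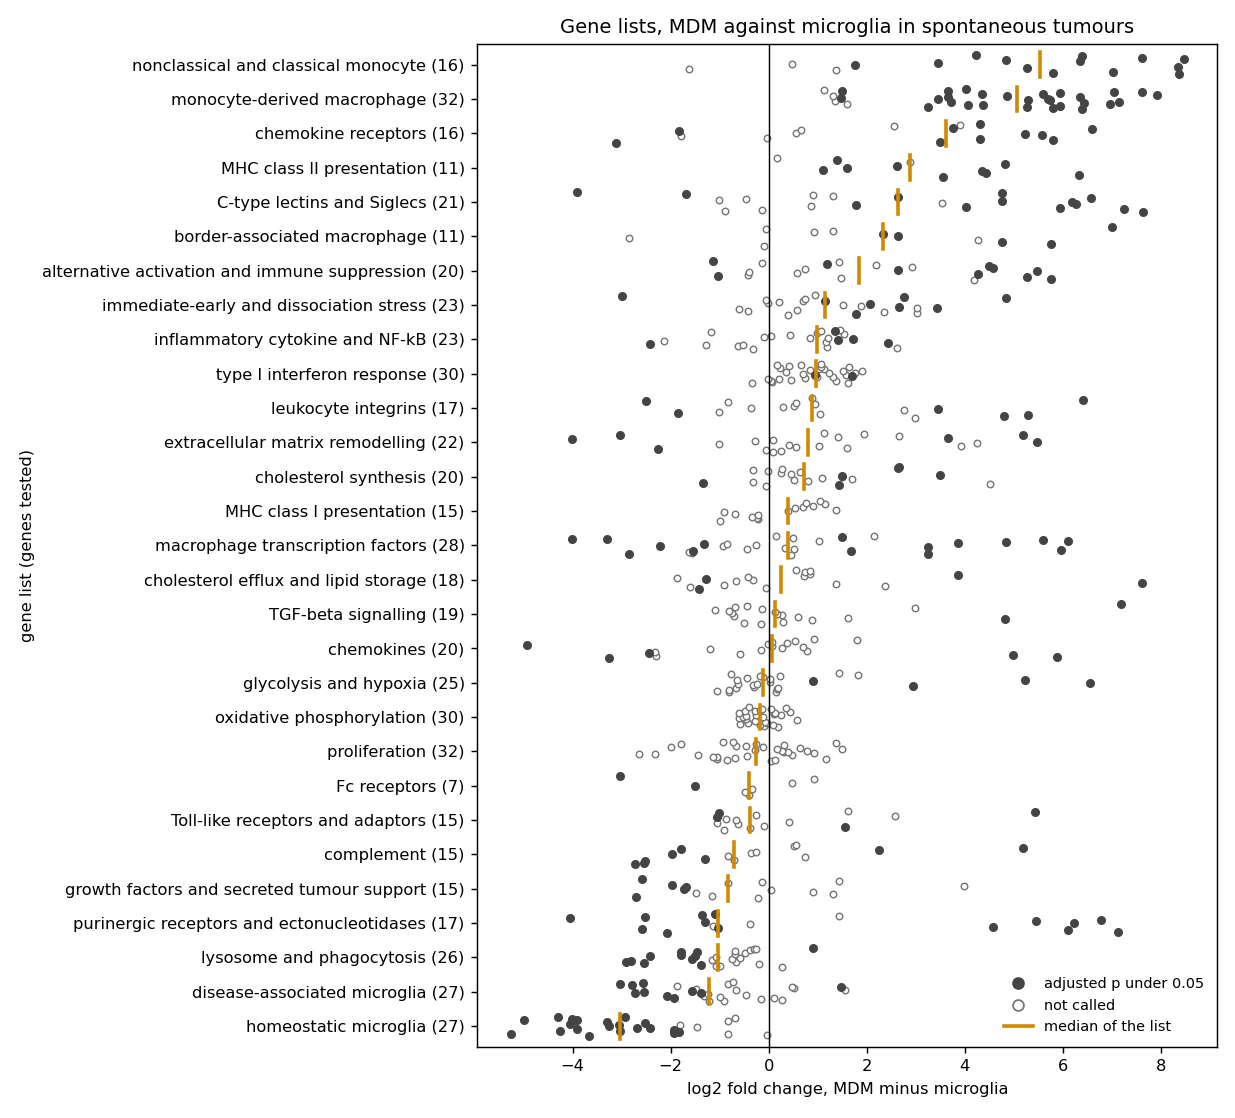
Log2 fold changes of MDM minus microglia for the tested members of 29 gene lists, filled where the adjusted p was under 0.05 and open where not, with a bar at the median of each list. The monocyte lists lie at the top with medians of 5.54 and 5.07, and the homeostatic microglia list at the bottom with a median of -3.03.

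Whether the difference between MDM and microglia itself differed between spontaneous and transplanted tumours was tested as an interaction in all 21 libraries. Of 17216 genes 385 (2.24%) were called, 217 (1.26%) with MDM relatively higher and 168 (0.976%) with MDM relatively lower in spontaneous tumours. The split depended on the scaling: 33.2% of calls were on the higher side with libraries rescaled to the same total, against 56.4% as fitted. Leaving out type 2 microglia 1, type 2 microglia 2, type 2 transplanted MDM 1, type 2 transplanted microglia 1 or type 2 transplanted microglia 2 gave 214 to 243 calls, leaving out type 2 microglia 3 gave 721, and leaving out type 2 transplanted MDM 3 gave 924. Of the 11 class II genes 7 were called on the higher side. In transplanted tumours H2-Ab1 read 137300 to 371200 in MDM and 40010 to 380500 in microglia, so the cell types overlapped there, and the fitted difference was 0.55, against 4.42 in spontaneous tumours. For this gene 5 of the 6 transplanted microglia libraries read above every spontaneous microglia library, and 5 of the 6 transplanted MDM libraries below every spontaneous MDM library. The difference of the differences was 3.88 ± 0.77 (adjusted p = 0.014). Ciita read 2026 to 5539 in transplanted MDM and 276 to 2523 in transplanted microglia, and its interaction was 4.40 ± 0.82 (adjusted p = 0.0096). Cd74 (3.53 ± 0.80, adjusted p = 0.027), H2-Aa (4.16 ± 0.80, adjusted p = 0.012) and H2-Eb1 (4.40 ± 0.84, adjusted p = 0.012) were called on the same side. The adjusted p rose past the threshold for Cd74 without type 2 transplanted MDM 1 or type 2 transplanted microglia 1 (adjusted p 0.0508 to 0.0526).

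**Figure D4:**
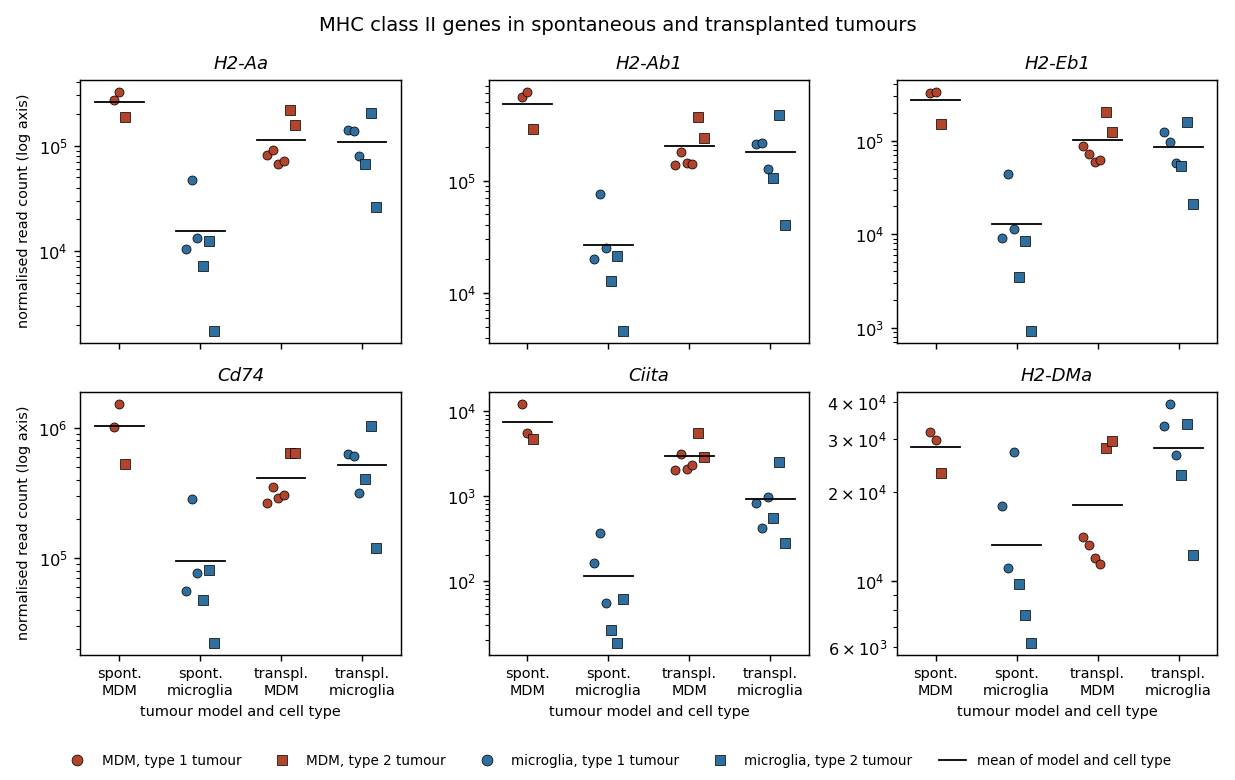
Normalised read count (log axis) of 6 MHC class II genes by tumour model and cell type in the 21 libraries, MDM in red and microglia in blue, circles for type 1 and squares for type 2 tumours, with a line at the mean of each model and cell type. In spontaneous tumours MDM lie above microglia, except for H2-DMa, whose libraries overlap, and in transplanted tumours the cell types overlap. H2-DMa was chosen for the plot after its values were seen.

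Outside class II, the called list members lay on the higher side as well, apart from Klrb1c of the T and NK cell list, named after its value was seen. They included 5 of 15 complement genes, 5 of 26 lysosomal genes and 4 of 27 homeostatic genes, against 1.26% of all genes called on the higher side. Tmem119 was lower in MDM in both models, but less so in spontaneous tumours (-2.93 against -5.68, interaction 2.75 ± 0.57, adjusted p = 0.018), and Csf1r (2.40 ± 0.54, adjusted p = 0.026) and Mertk (3.40 ± 0.59, adjusted p = 0.0068) were called on the same side. The largest interactions on the higher side were Serping1, Hunk, Chil1, Btnl6, Nxnl1 and Enpp5, and on the lower side Klrb1a, Gvin-ps6, Reln, Tmem163, Cyp11a1 and Ccl1. Chil1, a secreted chitinase-like protein, read 1355, 10280 and 7258 in spontaneous MDM and 4.77 to 480 in transplanted MDM, with an interaction of 6.03 ± 1.36 (adjusted p = 0.027). Klrb1a, an NK cell receptor, read 57.0, 44.2 and 299 in spontaneous MDM and 19.6 to 419 (median 107) in spontaneous microglia, against 229 to 1698 and 0 to 10.9 in the transplanted model, with an interaction of -8.02 ± 1.08 (adjusted p = 0.0017). Of these 12 genes Btnl6, Gvin-ps6, Reln, Cyp11a1 and Ccl1 did not pass the filter in the 9 spontaneous libraries. In 5 of the 6 transplanted MDM libraries the T and NK cell sum lay above that of every spontaneous MDM library: it was 275200 to 334200 in the 4 transplanted MDM libraries of type 1 and 324500 and 35220 in the 2 of type 2, against 14890 to 45120 in spontaneous MDM. The B cell sum was 18730 to 44410 in the 4 of type 1 and 23560 and 2437 in the 2 of type 2. In spontaneous MDM the B cell sum was 645 to 3621. The call was lost for Csf1r without type 1 MDM 1 or type 2 transplanted MDM 1 (adjusted p 0.0517 to 0.0684). Calls were lost for Chil1 without type 1 MDM 2, type 2 microglia 2, type 2 transplanted MDM 1, type 2 transplanted microglia 1 or type 2 transplanted microglia 2 (adjusted p 0.0505 to 0.0704). With the 4 type 1 transplanted MDM libraries left out, 2 genes were called, none of them among the 10 given here. The transplanted side of that fit was type 2 alone, with 2 MDM libraries, while the spontaneous side stayed the mean of both types. Tumour model and tumour type are thus mixed in it. Its interactions were 3.08 ± 1.07 (adjusted p = 0.35) for H2-Ab1, 4.05 ± 1.14 (adjusted p = 0.28) for Ciita and 1.38 ± 0.75 (adjusted p = 0.48) for Tmem119. Within type 1 alone 736 genes were called, with 4.37 ± 0.66 (adjusted p = 0.0043) for H2-Ab1 and 4.05 ± 0.83 (adjusted p = 0.019) for Ciita. The part of T, NK and B cell RNA in these differences was not tested.

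Whether the difference between MDM and microglia depended on tumour type was tested within spontaneous tumours. Of 15100 genes limma-trend called 0, with 841 at an unadjusted p under 0.05, 0 by voom and 272 with no filter on low values. The type 2 side rests on 1 MDM library that is assumed to vary like the other groups. Side by side, the fitted difference in type 1 and type 2 was 4.66 and 6.31 for Itga4, 6.00 and 5.49 for Ccr2, -2.89 and -2.97 for Tmem119, -3.07 and -5.64 for P2ry12 and 4.12 and 4.73 for H2-Ab1, each with the same sign in both types.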

How the data were processed

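RNA of sorted cells was sequenced from SMART-Seq v4 libraries, after TRIzol extraction and a miRNeasy Micro column, per the labels' protocols. The submitters' processing notes name STAR 2.7.8a, the mm10 genome and DESeq2; the counting program and the use of strand are not given in the sources used here. The deposited values are log2-like, variance-stabilised by the authors, for 30749 genes and 21 libraries, with a floor of 4.22, so they are not read counts. Inverting the transformation gave whole reads for 100% of values within 1e-06, and reads divided by the size factors are the normalised counts used here. Genes were kept at 10 or more normalised counts in 3 or more of the libraries fitted, and limma-trend (limma 3.58.1, R 4.3.3) was run on log2(count + 1), with the tables made in Python 3.11.15. The fits were also run on simulated data, whose outcome is not given here. The comparison of cell types used the 9 spontaneous libraries with tumour type as covariate. The interaction with the model used 8 group means over 21 libraries, and that with tumour type 4 group means over 9. Gene positions and promoters came from RefSeq, GRCm38.p6, which held 96.3% of the symbols.

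The members, gene lists and tests were chosen with earlier results of these data known. Genes were named by rule: a fixed list; the 8 largest rises and 8 largest falls without overlap whose higher cell type averaged 200 or more; from each list up to 6 called members by smallest p, members called against the list and up to 3 abundant members not called; and the 6 largest interactions in each direction. Some genes so chosen are not reported here. Predicted genes, receptor segments, Xist and Y-linked genes were left out of the ranking. Alternatives were a pseudocount of 8, other filters, quantile normalization, array weights, rescaling of libraries to the same total, the deposited values, voom on whole reads, blocks by library number, other choices of libraries, and leaving out each library. Near-identical copies, such as H2-DMb1 and H2-DMb2 or the H2 class I, Klrb1 and C-type lectin genes, and genes lying across each other on opposite strands can be credited with each other's reads, so their values are less certain. Counts measure RNA and not cells, and the reads carry no molecular identifiers.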

Additional observations from a re-analysis of the deposited data

Results flagged for a closer look

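In the 6 spontaneous microglia libraries, 12 of 139 items had a highest or lowest library standing apart, by a gap to the nearest library that was a larger share of the range than Dixon's 95% criterion allows. Chance gives about 1 in 20 where the values are spread as the criterion assumes. Type 1 microglia 2 was the library in 9 of the 12. It was the lowest in P2ry12 (gap of 0.641 of the range) and Mef2c (0.652), and the highest in Sh2d2a (1.0), L1cam (1.0), Flt3 (0.884), Nr4a1 (0.77), Timd4 (0.763), Ccl22 (0.657) and Fabp4 (0.709). Type 2 microglia 3 was the highest in Csf1r (0.663) and P2rx5 (1.0), and type 1 microglia 1 the lowest in Mrc1 (0.888). A gap of 1.0 means that the other libraries all held the same value. The criterion therefore does not apply to Sh2d2a, L1cam and P2rx5. The mean level of genes of monocyte-derived macrophages, highest in type 1 microglia 2, was also tested and was not among the 12. With type 1 microglia 2 left out, 2517 genes were called between MDM and microglia.

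For 10 genes the log2 difference of MDM minus microglia was tested to differ between spontaneous and transplanted tumours. It was more positive in the spontaneous model by 3.88 for H2-Ab1, 4.40 for Ciita, 3.53 for Cd74, 4.16 for H2-Aa and 4.40 for H2-Eb1. On the same side lay Tmem119 (2.75), Csf1r (2.40), Mertk (3.40) and Chil1 (6.03). Klrb1a lay on the other side, at -8.02. All 10 lost their call with the 4 type 1 transplanted MDM libraries left out, where Tmem119 was at 1.38. That fit set type 2 transplanted tumours alone against the mean of both types of spontaneous tumours. The T and NK cell sums and the B cell sums of MDM by model are given above, and their part in these values was not tested.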

How the results depend on the processing

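Of 2385 calls between MDM and microglia, the count was 8 in type 1 alone and 3888 with all 21 libraries in the fit, which tests 17216 genes. Leaving out 1 library gave 667 (without type 2 MDM 3) to 2517 (without type 1 microglia 2), and leaving out both type 1 libraries numbered 2, chosen after seeing the data, gave 1739. The other settings gave 2051 to 2887. Median log2 fold change over all genes was -0.13 after quantile normalization and 0.15 after rescaling to the same total, against 0.02, and 47.8% and 63.6% of calls were then higher, against 55.3%. The interaction with the model, 385 calls, gave 759 with array weights and 736 in type 1 alone (chosen after seeing the data). It gave 2 without the 4 type 1 transplanted MDM, where the transplanted side was type 2 alone. On leaving out 1 library it gave 214 to 924. With voom 73.4% of its calls were on the higher side. The interaction with tumour type, 0 calls, gave 16 with a filter at 50, 272 with no filter, 19 after quantile normalization, 2 after rescaling and 191 with array weights. It gave 0 in the other fits, apart from the block below. Without type 2 MDM 3 a group has no library, so neither interaction was fitted over both tumour types. The causes were not tested.

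Among the 137 genes given for MDM against microglia, signs turned only in some that were not called: H2-K1 to 0.36 after quantile normalization, Cebpb and Tgfb1 to 0.84 and 0.73 in type 1 alone, and 4 genes on leaving out 1 library. Over those fits H2-Ob ran from -0.049 (without type 1 MDM 1) to 0.44, with -0.03 without type 1 microglia 2. Ifit3 ran from -0.15 (without type 1 MDM 2) to 1.79, Cebpb from -3.14 to 0.84 (without type 2 MDM 3) and Tgfb1 from -0.63 to 0.73 (without type 2 MDM 3). Of the 120 that were called, 47 lost their call without type 2 MDM 3, 22 without type 1 MDM 2 and all 120 in type 1 alone; the fixed block, no filter and rescaling cost 8, 8 and 5, leaving out both type 1 libraries numbered 2 cost 14, and array weights, quantile normalization and voom cost 1, 2 and 2.

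The library numbers were not taken to pair the libraries: residuals of same-numbered MDM and microglia correlated at 0.218, 0.150 and -0.210, not all above 0.1. The last is pushed below 0 by the fit, since 1 MDM library stands for type 2, and each MDM library correlated best with its own number within its tumour type, a hint from the data and not the design. A replicate block gave 2718 calls with an estimated correlation and 2051 as a fixed term, where the difference of Tgfb1 was 0.020. With the block the interactions with model and tumour type gave 512 and 73 calls.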
